A study of Mus musculus with 5 samples.

Results

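The 10 genes described here make, sense or modify prostaglandins and related eicosanoids in mouse hippocampal nuclei: Pla2g4a, Ptgs1, Ptgs2, Ptges, Ptges3, Ptgds, Hpgds, Ptger3, Ptger4 and Alox5ap. They were taken by symbol from the 32285 gene features of 5 single-nucleus libraries in which RNA and open chromatin were read from the same nuclei, and each symbol matched 1 feature. The libraries, 1 per genotype, were labelled wild type (WT), 5xFAD, and 5xFAD with a knockout of MAGL in astrocytes, in neurons or globally. 5xFAD mice are a transgenic model of amyloid deposition, with transgenes behind the neuronal Thy1 promoter, and the 3 knockout groups carry the same transgenes, so each was set against the 5xFAD library. MAGL, the product of Mgll, is monoacylglycerol lipase, which breaks down the endocannabinoid 2-arachidonoylglycerol and releases arachidonic acid. How and where the knockouts were driven, the part of Mgll removed, and the age, sex and number of mice per library are not given in the sources used here. With 1 library per group differences between groups have no replicate check, and no p-value is given. Every interval below is a 95% interval that covers counting error only.

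Arachidonic acid is freed from membrane lipids by phospholipases such as cytosolic phospholipase A2, encoded by Pla2g4a, and in brain also by MAGL. The cyclooxygenases COX-1 (Ptgs1) and COX-2 (Ptgs2) turn it into prostaglandin H2, from which the terminal synthases make prostaglandin E2 (Ptges, Ptges3) or prostaglandin D2 (Ptgds, Hpgds). Prostaglandin E2 acts through G protein-coupled receptors that include EP3 (Ptger3) and EP4 (Ptger4), while Alox5ap encodes FLAP, which presents arachidonic acid to 5-lipoxygenase at the start of the leukotriene branch. COX-2 in the forebrain is best known as a neuronal gene induced by synaptic activity, COX-1 and haematopoietic prostaglandin D synthase as microglial genes, and lipocalin-type prostaglandin D synthase as a gene of oligodendrocytes and of the leptomeninges.

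The 5 libraries held 4050 to 7498 nuclei with a median of 14068.5 to 17353.5 unique molecular identifiers (UMIs) each, and 3917 to 7032 nuclei per library were used. Nuclei were placed in classes by clustering without the pathway genes, and class names stand for clusters whose markers are like those of the named cell type. Excitatory neurons made up 2676 to 5250 nuclei per library, inhibitory neurons 473 to 782, oligodendrocytes 214 to 308, microglia 43 to 122, oligodendrocyte precursors (OPC) 89 to 119, astrocytes 28 to 70 and vascular nuclei 13 to 21, and 1790 nuclei (6.68%) stayed unnamed. The vascular class mixed endothelial, mural and fibroblast markers and also held astrocyte markers, whose summed level there was 4031 to 6617 CPM (UMIs of a gene scaled to 1000000 UMIs in the class) against 17050 to 17900 CPM in the astrocytes. Pairs of libraries shared 29 to 63 cell barcodes, and 39.1% to 68.7% of nuclei held UMIs of Xist together with UMIs of Y-linked genes. Thy1, outside the fixed naming rule, stood at 42.1, 179, 215, 271 and 189 CPM in excitatory neurons in the order WT, 5xFAD, astrocyte, neuron and global MAGL-KO, so the WT library was the lowest. That order of libraries holds for every series of 5 values below. Mgll was at 74.3, 77.7, 92.5, 92.6 and 80.5 CPM over all nuclei and at 493, 346, 483, 403 and 430.2 CPM in astrocytes, not lower than in 5xFAD in any knockout-labelled library. In excitatory neurons it was at 68.6, 72.3, 88.6, 92.8 and 78.6 CPM and in inhibitory neurons at 86.7, 97.8, 104, 93.4 and 89.6 CPM, a little lower there than in 5xFAD in neuron and global MAGL-KO, and in microglia at 326, 113, 142, 156 and 101 CPM. UMIs of Mgll that lie outside the removed part are no check of the labels, and knockout groups are therefore named here only as labelled. Short genes as a whole were higher in neurons of the astrocyte and neuron MAGL-KO libraries than of 5xFAD, by amounts given with the comparisons. They were also higher, by less, in oligodendrocytes and microglia. The part of this shift in the ratios of single genes was not tested.

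Promoter sequences of 9 of the 10 genes were matched in RefSeq (GRCm38.p6), as windows of 300 bases from 250 before the transcript start to 50 after it, printed 5′ to 3′ on the strand of the gene. Alox5ap was not matched in the table used here. The windows of Ptgs1 and Hpgds are shown first because both genes were highest in microglia, by RNA, among all classes, and both windows hold the letters GAGGAAGT (in capitals), which contain the GAGGAA core read by ETS factors such as PU.1.
Ptgs1 promoter, chr2:36230176-36230475, plus strand: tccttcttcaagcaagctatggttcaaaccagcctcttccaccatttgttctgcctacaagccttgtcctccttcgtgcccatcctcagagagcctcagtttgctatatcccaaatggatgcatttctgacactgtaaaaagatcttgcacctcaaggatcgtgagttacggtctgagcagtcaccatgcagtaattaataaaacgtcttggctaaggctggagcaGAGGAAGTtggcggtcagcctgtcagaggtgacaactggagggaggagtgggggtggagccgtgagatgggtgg
Hpgds promoter, chr6:65144681-65144980, minus strand: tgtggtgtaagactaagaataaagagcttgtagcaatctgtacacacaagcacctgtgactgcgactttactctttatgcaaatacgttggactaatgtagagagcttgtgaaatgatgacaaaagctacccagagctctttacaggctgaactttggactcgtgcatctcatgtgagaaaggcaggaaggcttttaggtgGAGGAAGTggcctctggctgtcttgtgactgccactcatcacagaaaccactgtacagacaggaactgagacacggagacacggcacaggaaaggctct

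The capitals start 24 bases before the start of Ptgs1 and 49 bases before the start of Hpgds. On either strand GAGGAAGT was found in 3.2% of all 32851 RefSeq promoter windows of this length and GAGGAA in 28.3%. The longer letters were chosen after the sequences were seen, so the pair is a description. GAGGAA was also found in the windows of Ptgs2 and Ptges, and not in those of Pla2g4a and Ptger4, whose mean levels were highest in microglia too. The window of Ptgs2 is shown because most UMIs of this gene were in neurons. Its capitals mark ACGTCA, the core of the cAMP response element (at base 13 after the start, in 7.51% of all windows). They also mark GGGCGG, a GC box (170 bases before the start, in 35.7%), and GAGGAA (247 bases before it). The window of Ptgds is shown because its RNA and its promoter signal were both high in oligodendrocytes, with capitals marking a match to the AP-1 letters TGANTCA, 35 bases before the start (in 7.81% of all windows).
Ptgs2 promoter, chr1:150099781-150100080, plus strand: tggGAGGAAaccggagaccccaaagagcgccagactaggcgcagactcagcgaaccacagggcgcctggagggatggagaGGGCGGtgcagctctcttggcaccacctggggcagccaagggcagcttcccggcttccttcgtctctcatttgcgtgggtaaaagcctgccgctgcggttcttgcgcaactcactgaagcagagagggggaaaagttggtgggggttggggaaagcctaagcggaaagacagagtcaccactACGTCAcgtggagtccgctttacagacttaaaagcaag
Ptgds promoter, chr2:25469700-25469999, minus strand: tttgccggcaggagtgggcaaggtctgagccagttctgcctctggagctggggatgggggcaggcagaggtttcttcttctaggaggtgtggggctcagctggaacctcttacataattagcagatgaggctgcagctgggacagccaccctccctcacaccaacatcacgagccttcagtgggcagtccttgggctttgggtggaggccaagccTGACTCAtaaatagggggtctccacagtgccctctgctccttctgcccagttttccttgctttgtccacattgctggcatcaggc

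The TATA box letters TATAAA, present in 13.6% of all windows, were found in none of the 4 windows printed here. The GC box letters GGGCGG occurred on either strand 4 times in the windows of Ptges3 and Ptger4, 3 times in that of Ptger3, 2 times in that of Ptges and 1 time in that of Ptgs2.

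Each gene had its own distribution over the nuclei. Microglia gave the highest levels of Hpgds, Ptgs1 and Alox5ap, and oligodendrocytes and vascular nuclei those of Ptgds. Neurons, by far the most nuclei, held most UMIs of Ptgs2, Ptger3, Ptger4, Ptges and Ptges3. They also held most of those of Hpgds, Ptgs1 and Alox5ap, whose level in them was far below that of microglia. Ptges3 was detected in every class. Levels of different genes are not compared with each other, because nuclear UMIs rise with gene length and these genes span 3.3 to 132 kb.

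**Figure D1:**
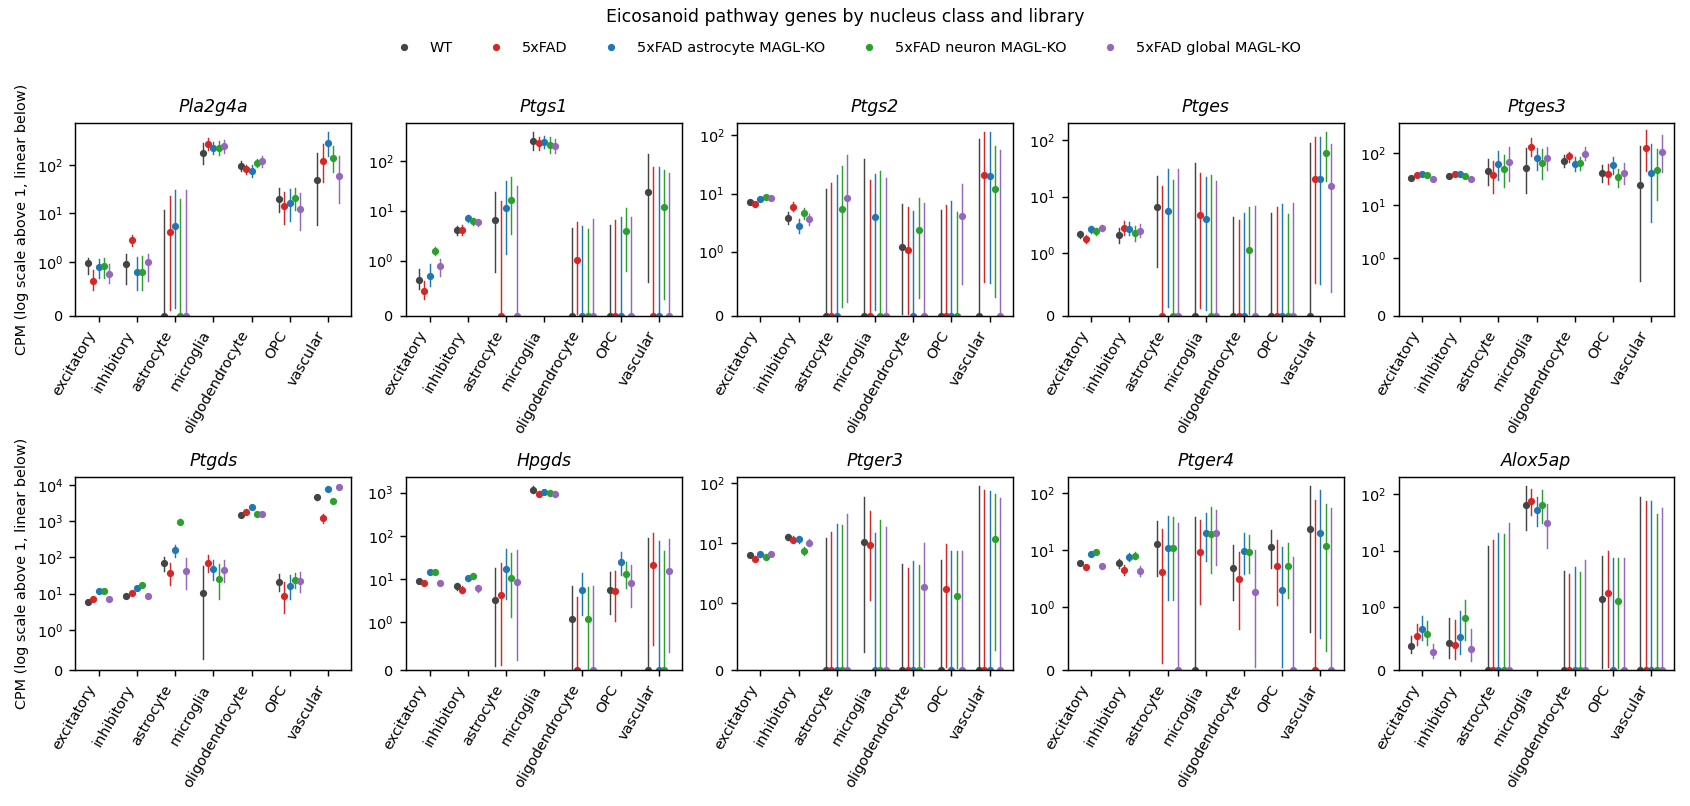
Level of each of the 10 genes, in CPM of the UMIs summed over a class (symmetric log axis, linear below 1 CPM), by nucleus class; points are the 5 libraries and bars the 95% counting intervals. Hpgds, Ptgs1 and Alox5ap peak in microglia in all 5 libraries, Ptgds is above 1000 CPM in oligodendrocyte and vascular nuclei, and Ptgs2 is low or at 0 in oligodendrocytes and OPC.

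Pla2g4a (chr1:149829618-149961290, minus strand, 132 kb; GENCODE vM21 on mm10), the arachidonate-releasing phospholipase, was highest in microglia, vascular nuclei and oligodendrocytes. In microglia its level was 179, 274, 224, 228 and 242 CPM from 17, 58, 57, 35 and 48 UMIs, and all 5 counting intervals overlapped. In oligodendrocytes it was 94.8, 81.3, 76.3, 110.5 and 119 CPM from 79, 78, 56, 96 and 65 UMIs, below the microglial level in each library. Of the oligodendrocyte nuclei 14.1 to 21.4% and of the microglia 30.2 to 43.9% held a UMI, against 0 or 1 UMI in all astrocytes of a library. Vascular nuclei gave 48, 123, 284, 142 and 60.6 CPM from only 2, 6, 14, 12 and 4 UMIs. Committed precursors, the stage between OPC and oligodendrocyte, had 68, 63, 13.7, 27.4 and 20.8 CPM from 13, 12, 3, 9 and 2 UMIs, higher in the WT and 5xFAD libraries than in the 3 knockout-labelled ones. With classes set by the highest marker score the log2 ratio of neuron MAGL-KO to 5xFAD turned to 0.30.

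In neurons Pla2g4a was low, and its inhibitory and excitatory levels differed in opposite directions between 5xFAD and WT. In inhibitory neurons it was 0.966, 2.83, 0.811, 0.822 and 0.998 CPM from 20, 56, 17, 17 and 24 UMIs, so the 5xFAD library stood alone. The ratio of 5xFAD to WT was 2.93 (95% interval 1.73 to 5.16), and the ratios of the astrocyte, neuron and global MAGL-KO libraries to 5xFAD were 0.286 (95% interval 0.156 to 0.5), 0.29 (95% interval 0.158 to 0.507) and 0.352 (95% interval 0.209 to 0.578). The 3 latter ratios share the 5xFAD library, so they are 1 high value read 3 times. The share of inhibitory nuclei with a Pla2g4a UMI was 2.94%, 5.66%, 1.67%, 2.54% and 2.3%, and 1 nucleus of the 5xFAD library held 10 of its 56 UMIs. Lhx6 interneurons had 1.08, 2.95, 0.828, 0.967 and 1.09 CPM and Adarb2 interneurons 0.612, 2.57, 0.76, 0.483 and 0.705 CPM. The nucleus with 10 UMIs was an Adarb2 interneuron and held 62.5% of the UMIs of that subclass. Without the richest nucleus of each library Adarb2 interneurons had 0.413, 0.976, 0.388, 0.167 and 0.532 CPM, from 6 UMIs in 5xFAD and 1 to 3 in the others. Set against its microglial level, inhibitory Pla2g4a was at 0.541%, 1.03%, 0.361%, 0.36% and 0.411% and the microglial markers at 0.338%, 0.476%, 0.44%, 0.514% and 0.354%, so it lay above them in WT, 5xFAD and global MAGL-KO. In excitatory neurons the same share was 0.549%, 0.236%, 0.406%, 0.405% and 0.32%, against 0.411%, 0.47%, 0.499%, 0.587% and 0.474% for the markers, above them in WT only. The excitatory level was 0.982, 0.646, 0.91, 0.923 and 0.776 CPM, lower in 5xFAD than in WT by a ratio of 0.658 (95% interval 0.454 to 0.945). Without nuclei of that kind, with Xist and Y-linked genes together, this log2 ratio went from -0.60 to -0.16.

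Ptgs1 (chr2:36230426-36252272, plus strand, 21.8 kb), encoding the constitutive COX-1, was a microglial gene with a second, lower level in inhibitory neurons. Microglia had 252, 226, 240.2, 209 and 202 CPM from 24, 48, 61, 32 and 40 UMIs, with overlapping intervals in all libraries and a UMI in 33 to 45.1% of the nuclei. Oligodendrocytes, which served as a class that should lack the gene, had 0, 1, 0, 0 and 0 UMIs. Microglia fell into clusters g6, which held no WT nuclei, and g7. Ptgs1 stood at 170, 184, 198 and 95.6 CPM in g6 of the 5xFAD and the 3 knockout-labelled libraries and at 252, 339, 332, 232 and 321 CPM in g7 of all 5, so it was lower in g6 in each library that had both.

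In inhibitory neurons Ptgs1 was 4.06, 4.05, 7.06, 6.09 and 5.82 CPM from 84, 80, 148, 126 and 140 UMIs, higher in the 3 knockout-labelled libraries than in WT and 5xFAD. The ratios to 5xFAD were 1.75 (95% interval 1.32 to 2.32) for astrocyte, 1.5 (95% interval 1.13 to 2.02) for neuron and 1.44 (95% interval 1.08 to 1.92) for global MAGL-KO. The share of inhibitory nuclei with a UMI was 14.1%, 12.7%, 18.7%, 19.9% and 16.4%. Ptgs1 was higher in Lhx6 interneurons, at 4.56, 5.02, 7.96, 6.84 and 6.91 CPM, than in Adarb2 interneurons, at 2.45, 1.93, 4.37, 4.35 and 2.29 CPM, in each library. Excitatory neurons had 0.654, 0.452, 0.712, 1.55 and 0.892 CPM from 56, 35, 54, 101 and 92 UMIs, and the neuron MAGL-KO library stood above the others with a ratio to 5xFAD of 3.44 (95% interval 2.32 to 5.21). The ratio was 1.58 (95% interval 1.01 to 2.48) for astrocyte and 1.97 (95% interval 1.32 to 3) for global MAGL-KO. Set against the microglial level of its own library, excitatory Ptgs1 was at 0.26%, 0.2%, 0.296%, 0.745% and 0.442% and the microglial markers at 0.411%, 0.47%, 0.499%, 0.587% and 0.474%, so over the class as a whole Ptgs1 lay above the markers in neuron MAGL-KO only. The subclasses were unequal. By subclass CA3 pyramidal neurons (1.49, 1.18, 1.99, 2.33 and 1.47 CPM) were above CA1 (0.732, 0.595, 0.858, 2.19 and 1.22 CPM), where the neuron MAGL-KO library was again highest, and dentate granule neurons were near 0 (0.0437 to 0.164 CPM). A UMI was found in 6.5%, 3.8%, 5.3%, 9.74% and 4.99% of CA3 and in 0.0614%, 0.0727%, 0.117%, 0.174% and 0.193% of dentate granule nuclei. Upper cortical-type neurons had 4, 4, 1, 4 and 2 and deep cortical-type neurons 1, 0, 3, 11 and 4 UMIs. The neuron MAGL-KO levels, at 4.17 and 2.88 CPM, and the WT upper cortical-type level were above CA3 of the same library.

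Ptgs2 (chr1:150100031-150108227, plus strand, 8.2 kb), encoding the inducible COX-2, had 82.0% of its UMIs in excitatory neurons, which were also most of the nuclei. Oligodendrocytes held 1, 1, 0, 2 and 0 UMIs, microglia 0, 0, 1, 0 and 0 and vascular nuclei 0, 1, 1, 1 and 0. Those of microglia and vascular nuclei were too few to show absence, since 1 UMI in WT microglia was 10.5 CPM. Excitatory neurons had 7.02, 6.47, 7.99, 8.65 and 8.35 CPM from 601, 501, 606, 562 and 861 UMIs. CA3 pyramidal neurons had 15.3, 18.1, 13.7, 16.1 and 15.2 CPM, with a UMI in 32.9 to 40.5% of the nuclei. Upper cortical-type neurons had 8.17, 11, 11.5, 7.29 and 16.5 CPM and CA1 pyramidal neurons 4.15, 4.6, 5.4, 6.24 and 4.72 CPM. Subicular and deep cortical-type neurons were lowest, at 1.89 to 3.1 and 1.85 to 4.19 CPM.

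In dentate granule neurons the libraries lay at different levels. Their Ptgs2 level was 5.99, 5.25, 12.8, 11.8 and 12.2 CPM from 137, 104, 256, 207 and 298 UMIs, so all 3 knockout-labelled libraries lay above WT and 5xFAD without overlap of the intervals. The ratios to 5xFAD were 2.43 (95% interval 1.93 to 3.09), 2.24 (95% interval 1.76 to 2.86) and 2.33 (95% interval 1.86 to 2.94) for astrocyte, neuron and global MAGL-KO. By the same 1.5-fold rule 19.6%, 17.9% and 8.37% of all genes tested in this subclass were higher in these 3 comparisons. The difference moved with the makeup of the subclass. A granule cluster, n3, led by Gm30551, Gm6999, Plpp4, Pappa and Col27a1, made up 1.96%, 1.6%, 22.8%, 26.3% and 32.8% of the dentate granule nuclei, that is 32, 22, 390, 303 and 678 nuclei. None of its dentate markers was among its top 10 genes. The 9 markers raised in it were counted over all the excitatory lists together, not over the dentate list alone. Ptgs2 in n3 was 27.8, 13.5, 30.2, 31 and 25.1 CPM, and n3 held 8.03%, 3.85%, 52%, 74.9% and 65.4% of the dentate Ptgs2 UMIs. Without n3 the level was 5.6, 5.12, 7.86, 4.12 and 6.19 CPM, and the ratios to 5xFAD were 1.53 (95% interval 1.17 to 2.02), 0.805 (0.564 to 1.14) and 1.21 (0.909 to 1.61). The neuron MAGL-KO library then lay below 5xFAD and the excess of the other two was smaller. What sets n3 apart was not tested. Immediate early genes were set beside Ptgs2 as other genes of neuronal activity. The 8 with enough UMIs in dentate granule neurons had a median ratio to 5xFAD of 1.01, 1.32 and 0.875, and without n3 of 1.01, 0.995 and 0.822. In excitatory neurons as a whole all 12 could be read, with medians of 0.557, 0.723 and 0.694, while Ptgs2 itself was at 1.24, 1.34 and 1.29 there. In inhibitory neurons the medians of 11 of these genes were 0.543, 0.745 and 0.509, and Ptgs2 was at 0.464, 0.761 and 0.606, below 1 as they were. This did not hold in each subclass. In Adarb2 interneurons of neuron MAGL-KO Ptgs2 was at 2.37, and the median of 9 of these genes was 0.78.

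**Figure D2:**
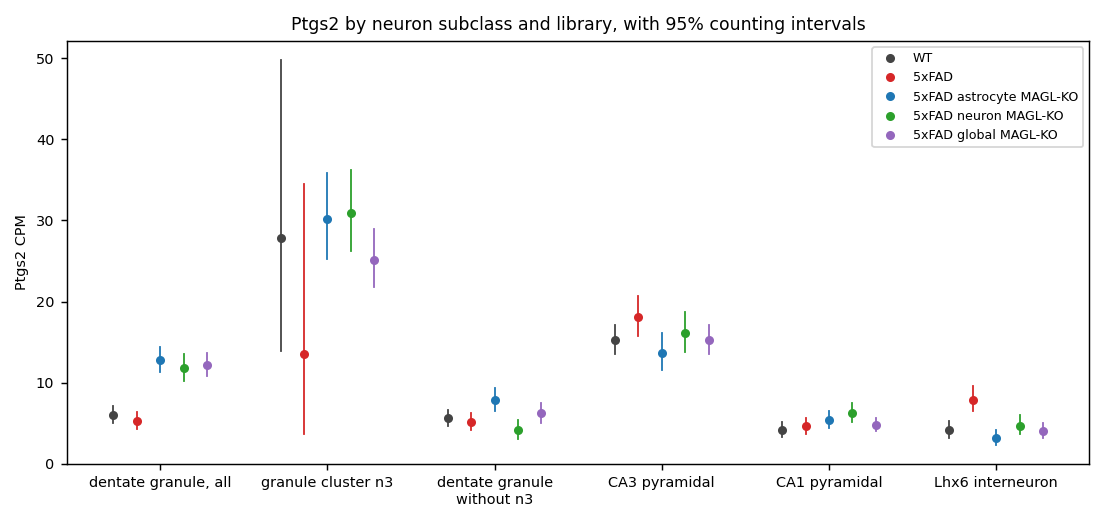
Ptgs2 level (CPM) in dentate granule neurons, in granule cluster n3, in the dentate granule neurons without n3 and in 3 other neuron subclasses; points are the 5 libraries and bars the 95% counting intervals. The 3 MAGL-KO libraries stand at 11.8 to 12.8 CPM over all dentate granule neurons against 5.25 and 5.99 CPM in 5xFAD and WT, and at 4.12 to 7.86 CPM without n3.

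In inhibitory neurons Ptgs2 went the other way, as Pla2g4a did. Its level was 3.82, 5.97, 2.77, 4.54 and 3.62 CPM from 79, 118, 58, 94 and 87 UMIs, highest in the 5xFAD library, with a ratio to WT of 1.56 (95% interval 1.17 to 2.11). The astrocyte, neuron and global MAGL-KO libraries were at 0.464 (95% interval 0.333 to 0.64), 0.761 (95% interval 0.574 to 1.01) and 0.606 (95% interval 0.454 to 0.806) of the 5xFAD level. The share of nuclei with a UMI did not follow, at 8.22%, 7.07%, 6.7%, 11.4% and 6.78%: the 118 UMIs of the 5xFAD library lay in 35 nuclei, and 1 nucleus held 18. In WT 1 nucleus held 17 of the 79 UMIs. Lhx6 interneurons had 4.12, 7.9, 3.19, 4.7 and 4.02 CPM and Adarb2 interneurons 2.85, 1.77, 1.52, 4.19 and 2.29 CPM, so 5xFAD was highest in the former.

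Ptges (chr2:30889471-30929863, minus strand, 40.4 kb), the inducible microsomal prostaglandin E synthase, was sparse, with most of its UMIs in neurons. Vascular nuclei held 0, 1, 1, 5 and 1 UMIs, at 0, 20.6, 20.3, 59 and 15.1 CPM, a mean level above that of neurons but on few UMIs. Excitatory neurons had 2.15, 1.77, 2.62, 2.42 and 2.8 CPM from 184, 137, 199, 157 and 289 UMIs, lowest in 5xFAD. Its ratio to 5xFAD was 1.58 (95% interval 1.29 to 1.96) for global, 1.48 (95% interval 1.19 to 1.86) for astrocyte and 1.36 (95% interval 1.08 to 1.73) for neuron MAGL-KO. Deep cortical-type neurons had the highest excitatory level, at 8.02, 4.87, 12.5, 7.07 and 8.19 CPM. Inhibitory neurons were at 2.08, 2.78, 2.72, 2.22 and 2.49 CPM with overlapping intervals. The gene overlaps Gm13400 on its own strand, and the sources used here do not say how reads were divided between them.

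Ptges3 (chr10:128058954-128077272, plus strand, 18.3 kb), which encodes p23, an HSP90 co-chaperone and cytosolic prostaglandin E synthase, was present in every class. It was lower in neurons than in oligodendrocytes in each library. It stood at 32.5, 38.3, 39.7, 37.4 and 32.3 CPM in excitatory and 35.6, 39.4, 39.9, 36.5 and 32 CPM in inhibitory neurons, and at 37.5 to 66.2 CPM in astrocytes, 34 to 58.6 CPM in OPC and 62.7 to 96.9 CPM in oligodendrocytes. In excitatory neurons, with their large UMI sums, the small differences exceeded counting error: 5xFAD over WT was 1.18 (95% interval 1.12 to 1.24) and global MAGL-KO over 5xFAD 0.843 (95% interval 0.802 to 0.886). In microglia it was 52.5, 132, 78.8, 65.2 and 80.8 CPM from 5, 28, 20, 10 and 16 UMIs, highest in 5xFAD, but the ratio to WT of 2.51 (95% interval 0.959 to 8.34) did not exclude 1.

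Ptgds (chr2:25466709-25470046, minus strand, 3.3 kb), the lipocalin-type prostaglandin D synthase, was a gene of oligodendrocytes and of the vascular class. Oligodendrocytes had 1490, 1784, 2471, 1559 and 1531 CPM from 1242, 1712, 1813, 1354 and 837 UMIs, with a UMI in 70.1%, 77.8%, 75.1%, 63.7% and 69.2% of the nuclei, against 2.33%, 14.6%, 8.2%, 5.88% and 7.45% of the microglia, which had a similar depth. The astrocyte MAGL-KO library was highest, at a ratio to 5xFAD of 1.39 (95% interval 1.3 to 1.48), under the 1.5-fold threshold, and the other 4 lay between 1490 and 1784 CPM. In this class and comparison all genes under 50 kb had a median ratio of 1.117, and 19.75% of them were higher past the threshold. Earlier stages had much less: 94.2, 236, 68.3, 64.1 and 125 CPM in committed precursors and 21.2, 8.73, 16.2, 23.6 and 22.5 CPM in OPC. In committed precursors 5xFAD was 2.51 times WT, from 18, 45, 15, 21 and 12 UMIs in the 5 libraries. Ratios of Ptgds in committed precursors and OPC changed direction with the way nuclei were classed in some comparisons.

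In vascular nuclei Ptgds ran from 1192 to 8751 CPM, at 4555, 1192, 7920, 3553 and 8751 CPM. The nucleus richest in Ptgds held 93.2%, 46.6%, 37.6%, 63.5% and 26.5% of these UMIs, in WT 177 of 190 in 1 of 13 nuclei. Without it the level was 337, 668, 5548, 1377 and 6921 CPM, and the ratio of 5xFAD to WT turned from 0.262 to a log2 ratio of 0.99. In astrocytes the level was 68.1, 37.5, 155, 967 and 41.4 CPM, and 153 of the 180 UMIs in the neuron MAGL-KO library lay in 1 nucleus. That nucleus had 43551 UMIs, against a class median of 4542.5, and held 47 UMIs of fibroblast and mural markers. All astrocytes of that library held UMIs of only 3 of the 8 fibroblast and 2 of the 7 mural markers, and its identity was not tested. Without the richest nucleus of each library astrocytes had 43.1, 21.7, 110, 189 and 25.4 CPM.

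Neurons had a low Ptgds level that differed between libraries. It was 5.82, 7.21, 11.5, 11.7 and 7.14 CPM in excitatory and 8.65, 10.4, 14.2, 17 and 8.56 CPM in inhibitory neurons, higher in the astrocyte and neuron MAGL-KO libraries. In excitatory neurons the ratios to 5xFAD were 1.6 (95% interval 1.44 to 1.78), 1.62 (95% interval 1.45 to 1.81) and 0.991 (95% interval 0.886 to 1.11) for astrocyte, neuron and global MAGL-KO. Set against the oligodendrocyte level of its own library, excitatory Ptgds was 0.39%, 0.404%, 0.466%, 0.749% and 0.466%, while the oligodendrocyte markers were at 0.897%, 0.859%, 0.751%, 0.837% and 0.778%. In inhibitory neurons Ptgds was at 0.58%, 0.584%, 0.573%, 1.09% and 0.559% and the markers at 0.549%, 0.648%, 0.465%, 0.532% and 0.501%, so the share of Ptgds was below that of the markers in excitatory neurons of each library, and in inhibitory neurons of 5xFAD only. The summed oligodendrocyte markers in excitatory neurons were at 165 to 184 CPM in the 5 libraries, and the fibroblast markers at 19.6, 10.2, 26.8, 28.5 and 27.9 CPM. The fibroblast list holds Dcn, which is also on the CA1 pyramidal list, so that sum need not be of fibroblast RNA alone. The part of free RNA in neuronal Ptgds was not tested.

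Hpgds (chr6:65117293-65144908, minus strand, 27.6 kb), the haematopoietic prostaglandin D synthase, marked microglia in every library at 1166, 939, 1028, 997 and 924 CPM from 111, 199, 261, 153 and 183 UMIs. A UMI was present in 86%, 87.8%, 82%, 94.1% and 83% of microglia and in at most 0.656% of oligodendrocytes, which had a similar depth (medians of 2038 to 2828 and 2152 to 2988 UMIs). The microglial level did not differ between libraries beyond the counting intervals. Border macrophage markers in this class came to 1, 3, 1, 0 and 74 UMIs, so only the global MAGL-KO library held them in number, and T cell markers to at most 1 UMI.

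Hpgds was also found in neurons, where it was higher in 2 of the knockout-labelled libraries. Excitatory neurons had 8.8, 8.06, 14.6, 14.5 and 7.91 CPM from 753, 624, 1110, 944 and 815 UMIs, with ratios to 5xFAD of 1.82 (95% interval 1.65 to 2.01) for astrocyte, 1.8 (95% interval 1.63 to 2) for neuron and 0.981 (95% interval 0.883 to 1.09) for global MAGL-KO. Inhibitory neurons had 6.76, 5.61, 10.3, 11.9 and 6.03 CPM, at ratios of 1.83 (95% interval 1.45 to 2.32), 2.12 (95% interval 1.69 to 2.67) and 1.07 (95% interval 0.833 to 1.39). WT and global MAGL-KO were below the other two knockout-labelled libraries in both classes. OPC had 5.66, 5.24, 24.2, 13.1 and 8.17 CPM from 4, 3, 12, 10 and 4 UMIs. As a share of its microglial level excitatory Hpgds was 0.754%, 0.858%, 1.42%, 1.46% and 0.855%, above the 0.411%, 0.47%, 0.499%, 0.587% and 0.474% of the microglial markers in each library. For Ptgs1 in inhibitory neurons the same shares were 1.61%, 1.79%, 2.94%, 2.92% and 2.88% against 0.338 to 0.514% for the markers. Hpgds overlaps Gm17147 and Ptgs1 overlaps Gm43621 on the opposite strand, and the sources used here do not say whether strand was used in counting.

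Ptger3 (chr3:157566892-157645888, plus strand, 79 kb), encoding the EP3 receptor, had most of its UMIs in neurons. Oligodendrocytes held 0, 0, 0, 0 and 1 UMIs and OPC 0, 1, 0, 1 and 0. Microglia held 1, 2, 0, 0 and 0 UMIs, too few to show absence, since 1 UMI in WT microglia was 10.5 CPM. Inhibitory neurons had 12.6, 11.5, 11.5, 7.44 and 10.2 CPM and excitatory neurons 6.36, 5.48, 6.5, 5.88 and 6.49 CPM, so inhibitory neurons were higher in each library. The highest Ptger3 level was in an unnamed cluster, n24, led by 9330185C12Rik, Plch1, Angpt1, Cd44 and Gm6602. Its excitatory markers were at 1084 to 1309 CPM, against 880 to 1002 CPM in inhibitory neurons, and its inhibitory markers at 10.2 to 339 CPM. Ptger3 in n24 was 94.3, 106, 91.1, 123 and 85.1 CPM, with a UMI in 80.2%, 85.3%, 81.3%, 76.9% and 71.7% of the nuclei. n24 held 24.5%, 25.4%, 22.5%, 13.5% and 21.4% of all Ptger3 UMIs in 1.61%, 1.37%, 1.55%, 0.664% and 1.71% of the nuclei.

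Among the named excitatory subclasses Ptger3 had its highest mean level in deep cortical-type (29.2, 14.8, 20.9, 16.8 and 22.9 CPM) and subicular neurons (19.8, 20.1, 14.7, 14.8 and 13.1 CPM). Upper cortical-type neurons had 7.62, 7.75, 12.4, 34.4 and 12.7 CPM from 14, 31, 29, 33 and 46 UMIs, above both in neuron MAGL-KO. It was lower in CA1 (4.88, 2.81, 7.07, 6.24 and 6.49 CPM) and CA3 (3.99, 2.27, 3.69, 3.45 and 4.73 CPM) and lowest in dentate granule neurons (0.349, 0.303, 0.449, 0.454 and 0.861 CPM). 5xFAD lay below WT at a ratio of 0.507 (95% interval 0.367 to 0.696) in deep cortical-type neurons, 0.576 (95% interval 0.404 to 0.814) in CA1 and 0.541 (95% interval 0.393 to 0.74) in Adarb2 interneurons. In CA1 all 3 knockout-labelled libraries lay above 5xFAD, at ratios of 2.51, 2.22 and 2.31, and also above WT. In inhibitory neurons the neuron MAGL-KO library was lowest, at 0.648 (95% interval 0.525 to 0.799) of 5xFAD.

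Ptger4 (chr15:5206661-5244187, minus strand, 37.5 kb), encoding the EP4 receptor, had most of its UMIs in neurons, although its mean level was highest in microglia, at 13.8 CPM. It stood at 6, 4.99, 8.59, 9.34 and 5.33 CPM in excitatory and 5.89, 4.5, 7.59, 8.02 and 4.36 CPM in inhibitory neurons. The astrocyte and neuron MAGL-KO libraries were above the other 3 in both classes. In excitatory neurons their ratios to 5xFAD were 1.72 (95% interval 1.52 to 1.96) and 1.87 (95% interval 1.65 to 2.13), and that of global MAGL-KO was 1.07 (95% interval 0.936 to 1.22). In inhibitory neurons they were 1.69 (95% interval 1.29 to 2.21), 1.78 (95% interval 1.37 to 2.33) and 0.97 (95% interval 0.724 to 1.3). Microglia held 0, 2, 5, 3 and 4 UMIs, too few for a comparison. Ptger4 overlaps Gm15937 and Ttc33 on the opposite strand.

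Alox5ap (chr5:149264767-149288153, plus strand, 23.4 kb), encoding FLAP, stood for the leukotriene branch and was microglial by level. Microglia had 63, 75.5, 51.2, 65.2 and 30.3 CPM from 6, 16, 13, 10 and 6 UMIs, with overlapping intervals, and 6.38 to 15.8% of microglia held a UMI. It was at 42.5, 31.8, 28.3 and 9.56 CPM in cluster g6 of the 5xFAD-labelled libraries, below the 141, 83, 148 and 53.5 CPM of their g7 nuclei. No UMI was found in oligodendrocytes, astrocytes or vascular nuclei. Excitatory neurons had 0.386, 0.542, 0.646, 0.569 and 0.291 CPM, lower in global MAGL-KO than in 5xFAD at 0.536 (95% interval 0.324 to 0.878). These levels were 0.612%, 0.719%, 1.26%, 0.873% and 0.96% of the microglial level, above the marker share in each library. The microglial levels rest on 6 to 16 UMIs, so the counting error of these shares is wide. The gene overlaps Gm19719 and n-R5s180 on the opposite strand.

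Set together, the 10 genes moved in pairs of gene and class more often in the astrocyte and neuron MAGL-KO libraries than elsewhere, and so did genes at large. A pair was counted as higher or lower when its ratio was at least 1.5 or at most the inverse, with 20 UMIs or more over both libraries. The rule did not ask that the counting interval exclude 1, so some pairs named below may not differ beyond counting error. Pla2g4a in vascular nuclei, for instance, rests on 14 UMIs in astrocyte MAGL-KO and 6 in 5xFAD. In 5xFAD against WT 36 pairs could be read, of which 5 (13.9%) were higher and 4 (11.1%) lower, against 6.99% and 8.5% of all gene and class pairs. The higher ones were Pla2g4a and Ptgs2 in inhibitory neurons, Pla2g4a and Ptges3 in microglia and Ptgds in committed precursors. The lower ones were Pla2g4a in excitatory neurons and Ptgds in astrocytes, OPC and vascular nuclei.

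In astrocyte MAGL-KO against 5xFAD 11 of 35 pairs (31.4%) were higher and 4 (11.4%) lower, against a background of 19.1% and 6.31%. In neuron MAGL-KO against 5xFAD the counts were 12 (33.3%) and 5 (13.9%) of 36, against 18.3% and 6.53%. Ptgs1, Ptgds, Hpgds and Ptger4 in excitatory neurons and Ptgs1, Hpgds and Ptger4 in inhibitory neurons were higher in both comparisons, which share the 5xFAD library. The other higher pairs in astrocyte MAGL-KO were Ptges3 and Ptgds in astrocytes and Pla2g4a and Ptgds in vascular nuclei, and in neuron MAGL-KO Ptgds in inhibitory neurons, astrocytes, OPC and vascular nuclei and Alox5ap in inhibitory neurons. Lower in both were Pla2g4a in inhibitory neurons, Ptges3 in microglia and Ptgds in committed precursors, with Ptgs2 in inhibitory neurons in astrocyte MAGL-KO and with Ptger3 in inhibitory neurons and Pla2g4a in committed precursors in neuron MAGL-KO. In global MAGL-KO against 5xFAD only 3 of 31 pairs (9.68%) were higher (Ptgs1 and Ptges in excitatory neurons and Ptgds in vascular nuclei) and 7 (22.6%) lower, against 9.02% and 7.63%. The lower ones were Alox5ap in excitatory neurons, Pla2g4a and Ptgs2 in inhibitory neurons, Ptges3, Ptgds and Alox5ap in microglia and Ptgds in committed precursors. Pairs that share a gene or a library are not independent, so these shares are descriptions.

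The higher neuronal values stood beside a shift of all genes. In excitatory neurons the median log2 ratio over all genes tested was -0.02 in 5xFAD against WT and 0.26, 0.22 and 0.05 in astrocyte, neuron and global MAGL-KO against 5xFAD, and the median of the 10 genes was -0.17, 0.53, 0.48 and 0.17. The shift was one of short genes: under 50 kb the all-gene median was 0.34 in astrocyte and 0.31 in neuron MAGL-KO, and from 50 kb up it was 0.05 and 0.02. Of all excitatory genes under 50 kb 28% and 26.2% were higher in these 2 comparisons. Of the 10 genes 8 lie under 50 kb, all but Ptger3 and Pla2g4a. Among those 8, Ptgs2, Ptges, Ptges3 and Alox5ap were under the 1.5-fold threshold in excitatory neurons in both comparisons, and Ptgs1, Ptgds, Hpgds and Ptger4 were past it. With median-of-ratios size factors, which centre all genes, the excitatory log2 ratios in astrocyte and neuron MAGL-KO went from 0.86 and 0.85 to 0.61 and 0.64 for Hpgds, to 0.53 and 0.69 for Ptger4, to 0.42 and 0.48 for Ptgds and to 0.40 and 1.57 for Ptgs1, and the counts of higher and lower pairs became 7 and 5, and 9 and 5, with 4 and 3 in 5xFAD against WT and 3 and 7 in global MAGL-KO. Over all gene and class pairs the same scaling called 13.3% higher and 7.61% lower in astrocyte and 14.0% and 7.9% in neuron MAGL-KO, 7.03% and 8.39% in 5xFAD against WT, and 8.58% and 7.73% in global MAGL-KO. Hpgds stayed past the 1.5-fold threshold in both libraries and Ptger4 and Ptgs1 in neuron MAGL-KO, while Ptgds in both and Ptger4 and Ptgs1 in astrocyte MAGL-KO fell under it. In inhibitory neurons Ptger4 fell under it in astrocyte MAGL-KO (log2 ratio 0.55), as did Ptgs1 (0.41) and Ptgds (0.53) in neuron MAGL-KO. In 5xFAD against WT Pla2g4a fell just under it in excitatory neurons (-0.58) and microglia (0.58). The inhibitory all-gene medians were 0.00, 0.21, 0.18 and 0.03. The shift of short genes was smaller in glia. Under 50 kb the median ratios in astrocyte and neuron MAGL-KO were 1.117 and 1.105 in oligodendrocytes and 1.073 and 1.063 in microglia. From 50 kb up they were 0.960 and 0.975 in oligodendrocytes and 0.974 and 0.947 in microglia.

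**Figure D3:**
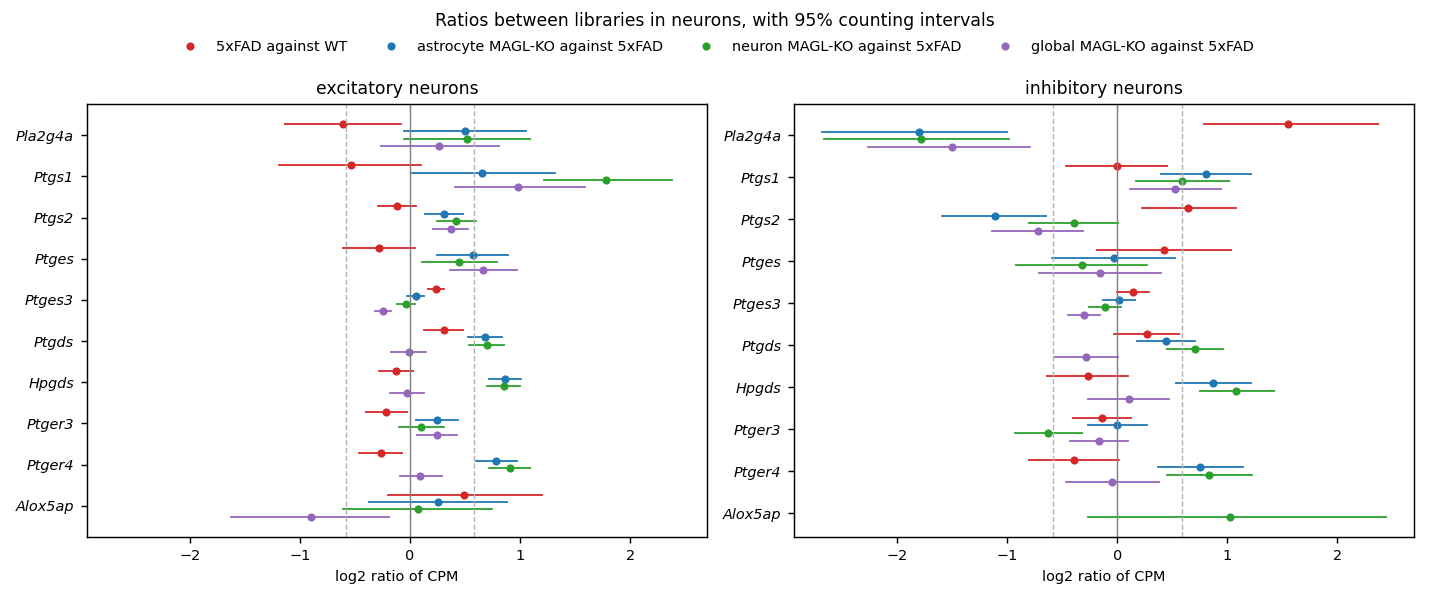
Log2 ratio of CPM of each of the 10 genes in excitatory (left) and inhibitory (right) neurons for the 4 comparisons; points are single ratios of 2 libraries, bars 95% counting intervals and dashed lines the 1.5-fold threshold, and Alox5ap in inhibitory neurons had enough UMIs in 1 comparison. Hpgds and Ptger4 lie right of the threshold in astrocyte and neuron MAGL-KO in both classes, and Pla2g4a in inhibitory neurons lies right of it in 5xFAD against WT and left of it in the 3 others, which share the 5xFAD library.

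The other genes of arachidonic acid release and of eicosanoid making, sensing and breakdown were higher about as often as genes at large. They were also lower about as often, except in astrocyte MAGL-KO, where fewer were lower. Of 57 such genes measured, 8 of 126 gene and class pairs were higher and 11 lower in 5xFAD against WT. The counts were 23 and 4 of 122 in astrocyte, 26 and 10 of 129 in neuron and 12 and 9 of 123 in global MAGL-KO against 5xFAD. Over the 4 comparisons 6.35%, 18.9%, 20.2% and 9.76% were higher, beside the backgrounds above. Lower were 8.73%, 3.28%, 7.75% and 7.32%, against 8.5%, 6.31%, 6.53% and 7.63% of all gene and class pairs. By UMIs the leading genes were Abhd12, another 2-arachidonoylglycerol lipase, in excitatory neurons (103.5 to 122 CPM), inhibitory neurons (96.1 to 110 CPM), microglia (925 to 1199 CPM), oligodendrocytes (96.8 to 132 CPM) and OPC (190 to 238 CPM). Next came Faah, the anandamide hydrolase, in excitatory neurons (88.5 to 94.4 CPM), Tbxas1, thromboxane synthase, in microglia (599 to 854 CPM), Lta4h, leukotriene A4 hydrolase, in oligodendrocytes (80.5 to 119 CPM) and Mgll in inhibitory neurons (86.7 to 104 CPM) and OPC (127.5 to 183 CPM). Astrocytes were led by Pla2g7, a phospholipase that hydrolyses platelet-activating factor (625 to 752 CPM), and Mgll. Vascular nuclei were led by Abcc4, an exporter of prostaglandins (192 to 394 CPM), and Pla2g7 (81 to 192 CPM). That class also held astrocyte markers, and the part of astrocyte RNA in its Pla2g7 was not tested.

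The other pathway genes with the largest ratios were these. In 5xFAD against WT, Ptgdr, a prostaglandin D2 receptor, was at 4.2 (95% interval 1.52 to 14.4) in excitatory neurons from 19 and 5 UMIs, Gpr17, a receptor related to those of cysteinyl leukotrienes, at 0.262 (95% interval 0.0637 to 0.811) in inhibitory neurons and Mgll at 0.348 (95% interval 0.195 to 0.612) in microglia. In astrocyte MAGL-KO against 5xFAD, Abcc4 was at 0.386 (95% interval 0.15 to 0.887) in OPC, and Akr1b3, an aldose reductase, and Mgll were at 2.54 (95% interval 1.38 to 4.86) and 2.34 (95% interval 1.39 to 4.04) in oligodendrocytes. In neuron MAGL-KO against 5xFAD, Oxgr1, the 2-oxoglutarate receptor, and Gpr17 were at 0.132 (95% interval 0.0149 to 0.553) and 2.98 (95% interval 1.26 to 7.82) in excitatory neurons, and Pla2g6, a calcium-independent phospholipase, at 0.291 (95% interval 0.0849 to 0.805) in oligodendrocytes. In global MAGL-KO against 5xFAD, Hpgd, the enzyme that inactivates prostaglandins, was at 2.41 (95% interval 1.9 to 3.07) in excitatory neurons from 298 and 93 UMIs, Abcc4 at 0.0992 (95% interval 0.00239 to 0.62) in astrocytes and Ptger1, the EP1 receptor, at 2.86 (95% interval 1.13 to 7.59) in committed precursors. Intervals for the small classes were wide, and these genes were picked by size of ratio.

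Open chromatin in the same nuclei gave a second reading that the choice of genes did not use. The deposited peak lists, one per library, held a peak within 1 kb of the gene start in all 5 libraries for 8 of the 10 genes, or 40 of 50 gene and library pairs. The same was true of 53.8% of all gene features with a GENCODE position and of 62.9% of the protein-coding ones. Hpgds had none and Alox5ap none within 1 kb, although both were read as RNA in microglia. A peak not listed is not a peak absent, and microglia were only 43 to 122 nuclei per library. For Ptges the peak lay at the GENCODE start, 26.6 kb upstream of the RefSeq window, and the window itself held a peak in the 5xFAD library alone. Values below are transposase cut sites in the promoter peak, scaled to CPM of all cut sites in peaks of the class.

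Ptgs1 cut sites were at 80.1, 41.6, 43.5, 27.4 and 40.7 CPM in microglia and at 6.45, 4.74, 4.96, 5.84 and 4.67 in inhibitory neurons, against 0.903, 0, 0, 0 and 0 in oligodendrocytes, the order of its RNA in these 3 classes. Pla2g4a cut sites were at 50.7, 23.4, 31.7, 23.5 and 11.4 in microglia, 4.01 to 8.58 in oligodendrocytes and 2.02 to 2.23 in excitatory neurons, also in the order of the RNA. Ptgds cut sites were at 78.5, 73.3, 89.6, 74.9 and 66.8 in oligodendrocytes and 1.48 to 1.99 in excitatory neurons. In inhibitory neurons they were at 5.03 to 8.03, above the excitatory value in each library. The oligodendrocyte intervals of Ptgds overlapped between libraries.

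Ptgs2 cut sites were at 14.6, 13.9, 15, 11.6 and 12.9 in excitatory neurons, 17.3, 15.5, 19.2, 14.1 and 16.6 in dentate granule neurons and 17, 17.4, 18.3, 16.1 and 12.5 in CA3, against 0 to 1.34 in oligodendrocytes. In dentate granule neurons the 3 knockout-labelled libraries were not set apart from WT and 5xFAD, unlike in the RNA. Ptger3 cut sites were at 6.07 to 7.63 in excitatory neurons and at 4.53 to 6.07 in dentate granule neurons, although granule neurons had 0.303 to 0.861 CPM of its RNA. Ptger4 cut sites were at 34.7, 39, 57.5, 62.6 and 63.5 in microglia and 10.4 to 12.4 in excitatory neurons, while its RNA in microglia rested on 0, 2, 5, 3 and 4 UMIs. Ptges3 had cut sites at 40.7 to 48.6 in excitatory neurons, 64.1 to 89.6 in oligodendrocytes and 70.5 to 111 in microglia. Peaks were defined separately in each library, so widths differ slightly between libraries.

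**Figure D4:**
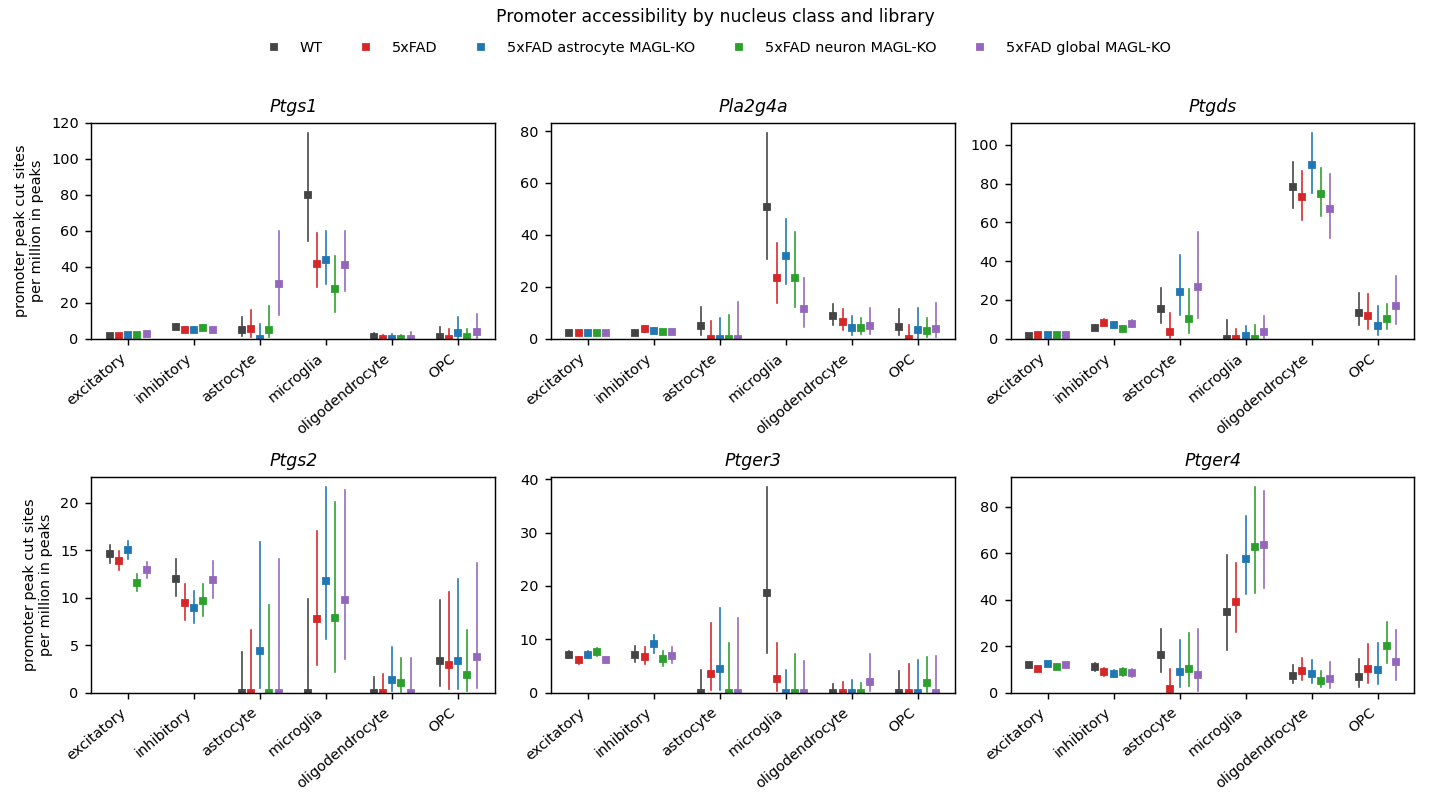
Transposase cut sites in the promoter peak of 6 genes, scaled to CPM of all cut sites in peaks, by nucleus class; squares are the 5 libraries and bars the 95% counting intervals. Ptgs1 and Pla2g4a are highest in microglia in each library, Ptgds is highest in oligodendrocytes, Ptgs2 is at or near 0 in oligodendrocytes, and Ptger4 is higher in microglia than in neurons.

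The genes whose pattern over 12 classes and subclasses was most like each of the 10 were found by correlation. Likeness was Pearson's r of log2(CPM + 5) over 60 values, which share libraries and depth, so it is a description with no test. Nearest to Hpgds were Cyth4 (r = 0.967) and Daglb (r = 0.967), to Ptgs1 Gm12185 (r = 0.966) and C1qc (r = 0.964), and to Alox5ap Cd300a (r = 0.993), Tmem173 (r = 0.991) and Ptpn6 (r = 0.99). Nearest to Pla2g4a were E330020D12Rik (r = 0.966), Picalm (r = 0.957) and Evi2a (r = 0.956), and to Ptgds Cldn11 (r = 0.964), Apod (r = 0.957) and Tmbim1 (r = 0.952). For the other genes the values were lower: Vwc2l (r = 0.885), Hs3st2 (r = 0.883) and Trim66 (r = 0.879) for Ptger3, AI115009 (r = 0.806), Gm12536 (r = 0.794) and Nptxr (r = 0.782) for Ptgs2, 4930414N06Rik (r = 0.776), AC166172.1 (r = 0.742) and Rpl38 (r = 0.729) for Ptger4 and Myocd (r = 0.748), Gm39436 (r = 0.731) and Rgsl1 (r = 0.719) for Ptges. Ptges3 was nearest to Ythdc1 (r = 0.879), Nod1 (r = 0.871) and Eif4h (r = 0.86).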

How the data were processed

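RNA and open chromatin were measured in single nuclei of mouse hippocampus, 1 library per genotype. Gene values are counts of UMIs and peak values counts of transposase cut sites, as deposited by the authors. Per the submitters' processing notes they were made with Cell Ranger ARC 2.0.0 on mm10, and Seurat was used. The aligner and annotation are not given in the sources used here.

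Nuclei passed with 500 detected genes or more and a mitochondrial share of 5% or less, and the 0.8% per 1000 nuclei with the highest Scrublet scores were removed as likely doublets (131 to 448 per library). Nuclei were clustered with scanpy 1.11.5 and leidenalg 0.10.2 on 2000 variable genes, without the pathway genes (40 components, 15 neighbours, resolution 1, then 1.5 for glia). Clusters were named from marker lists. UMIs were summed per class and scaled to CPM. Intervals are exact at 95% (Poisson for levels, Clopper-Pearson for shares, conditional for ratios) and cover counting error only. A pair was called at 1.5-fold with at least 20 UMIs. The code recovered known ratios in simulated data. 12 other settings were tried, and 3 chosen after seeing the data.

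All 10 genes are named. Of the other pathway genes, those named are the 2 with the most UMIs in each of 7 classes and the 3 with the largest ratio in each comparison whose interval excluded 1. The 3 genes most like each member by correlation are named too, except 2 that are not reported here. The members and lists were chosen with earlier results of these data known.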

Additional observations from a re-analysis of the deposited data

Results flagged for a closer look

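The same contrast gave ratios on opposite sides of 1, each past 1.5-fold, in different classes or subclasses for Pla2g4a, Ptgds, Ptger3 and Ptgs2. The differences were not tested, since each value compares 2 libraries. In 5xFAD against WT, Pla2g4a was at 2.93 in inhibitory and 0.658 in excitatory neurons, and Ptgds at 2.51 in committed precursors and 0.262 in vascular nuclei. The vascular value rested on 1 WT nucleus, and without the richest nucleus of each library it was 1.98, the same direction as in committed precursors. Ptgds was also lower past 1.5-fold in astrocytes and OPC, so classes of opposite direction remained. The OPC ratio changed direction with classes set by marker score.

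In astrocyte MAGL-KO against 5xFAD, Ptgds was at 1.6 in excitatory neurons, 4.14 in astrocytes and 6.64 in vascular nuclei but 0.289 in committed precursors. The last turned to a log2 ratio of 0.57 with classes set by marker score, and the vascular one to -0.76 in Y-only nuclei. Ptger3 was at 2.51 in CA1 pyramidal neurons and 0.66 in Adarb2 interneurons (0.754 without the richest nucleus of each library), and Ptgs2 at 2.43 in dentate granule neurons (1.53 without cluster n3) and 0.403 in Lhx6 interneurons.

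In neuron MAGL-KO against 5xFAD, Ptgds was at 1.62 in excitatory neurons, 1.63 in inhibitory neurons, 25.8 in astrocytes and 2.98 in vascular nuclei, and at 0.271 in committed precursors. In astrocytes 153 of 180 UMIs lay in 1 nucleus, and without the richest nucleus of each library the astrocyte ratio was 8.73 and the vascular one 2.06. In Xist-only nuclei the vascular log2 ratio was -4.61. Ptger3 was at 2.22 in CA1 and 4.44 in upper cortical-type neurons and at 0.602 in Lhx6 interneurons. Ptgs2 was at 2.24 in dentate granule neurons, but 0.805 without cluster n3, and 2.37 in Adarb2 interneurons and at 0.595 in Lhx6 interneurons.

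In global MAGL-KO against 5xFAD, Ptgds was at 2.36 in upper cortical-type and 0.506 in subicular neurons. In the upper cortical-type neurons 38 of 60 UMIs lay in 1 nucleus, and without the richest nucleus of each library the ratio was 1.05. Ptger3 was at 2.84 in dentate granule, 2.31 in CA1, 2.08 in CA3, 1.63 in upper cortical-type and 1.54 in deep cortical-type neurons, and at 0.649 in subicular neurons. Ptgs2 was at 2.33 in dentate granule (1.21 without cluster n3) and 1.5 in upper cortical-type neurons and at 0.509 in Lhx6 interneurons.

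The nuclei left unnamed, which entered no comparison, held some genes above and others below their WT level there. Ptgds was at 16.1 CPM in 5xFAD, 80.4 CPM in astrocyte, 45 CPM in neuron and 21.8 CPM in global MAGL-KO, against 7.3 CPM in WT. Hpgds was at 14.1 CPM in astrocyte MAGL-KO against 9.39 CPM, and Ptger4 at 7.17 and 8.39 CPM in astrocyte and neuron MAGL-KO against 4.29 CPM. Ptgs2 was at 10.7 CPM in neuron MAGL-KO against 5.1 CPM. It was below WT in 5xFAD (3.16 CPM), astrocyte (3.24 CPM) and global MAGL-KO (3.7 CPM). Ptger3 was below its WT level of 33.7 CPM in each other library, at 23.7, 29.8, 14.7 and 24.8 CPM. Ptges was at 2.59 CPM in 5xFAD against 4.06 CPM in WT, and at 5 CPM in global MAGL-KO.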

How the results depend on the processing

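No paired analysis was possible because a genotype has a single library and the labels pair none of them. Of the ratios of single genes under other settings, 642 kept their direction and side of the 1.5-fold threshold, 90 fell below it, 32 went past it and 10 reversed. Of the levels, 271 stayed within their counting interval and 129 moved. Of the counts of pairs past 1.5-fold, 34 stayed within 1.5 times and 10 moved.

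The main counts were 9, 15, 17 and 10 pairs in 5xFAD against WT and in astrocyte, neuron and global MAGL-KO against 5xFAD. With nuclei thinned to 1000 UMIs they were 3, 7, 4 and 1, of only 14, 15, 15 and 14 pairs with enough UMIs. With Xist-positive nuclei that held no Y-linked UMI they were 7, 8 and 5 in the 3 knockout-labelled comparisons, of 15, 13 and 15 pairs. With a pseudocount of 5 CPM they were 7, 7 and 5, since neuronal levels near or under 5 CPM are then drawn together.

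With classes set by the highest marker score, the log2 ratio of Ptgds reversed to 0.42 in OPC (5xFAD against WT), 0.57 in committed precursors (astrocyte MAGL-KO) and -0.15 in OPC (neuron MAGL-KO), and that of Pla2g4a in committed precursors to 0.30 (neuron MAGL-KO). With Xist-only nuclei the vascular Ptgds log2 ratio became 3.35 in 5xFAD against WT and -4.61 in neuron MAGL-KO, and with Y-only nuclei -0.76 in astrocyte MAGL-KO. As a mean over nuclei, Ptgds in committed precursors became 0.35 in global MAGL-KO. Of the settings chosen after seeing the data, leaving out cluster n3 turned Ptgs2 in dentate granule neurons to -0.31 in neuron MAGL-KO, and leaving out the nucleus richest in Ptgds turned vascular Ptgds to 0.99 in 5xFAD against WT. Of the ratios past 1.5-fold whose interval excluded 1, in classes and subclasses, 111 stayed past it without the richest nucleus of each library, 1 reversed and 3 fell under it: Ptgds in dentate granule neurons (5xFAD against WT) and in upper cortical-type neurons (global MAGL-KO), and Ptger3 in Adarb2 interneurons (astrocyte MAGL-KO). The cause of these reversals was not tested. Peaks within 2 kb rather than 1 kb of the start gave 41 of 50 pairs in place of 40.

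Astrocyte, vascular and committed precursor values rest on few nuclei, and a level of 0 there does not exclude a level of 3 UMIs. Mice per library are not given, so no value here separates genotype from library.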
